A study of Mus musculus with 16 samples.

Results

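Expression of 10 genes of T cells and intraepithelial lymphocytes was followed in the jejunum of irradiated and unirradiated mice on a methionine-supplemented or a methionine-adequate diet. The genes were taken as a fixed list of symbols: Cd3e, Cd3g, Cd8a, Cd8b1, Itgae, Gzma, Gzmb, Cd160, Xcl1 and Ccl5. All 10 matched 1 gene each among the 37620 genes of the data and passed the filter on low counts, which 16558 genes passed. RNA came from the proximal jejunum, the stretch of small intestine that follows the duodenum. The animals were male CBA/J mice, an inbred strain, aged 8 weeks. The groups were mice on the supplemented diet (300%) given 8.5 Gy of gamma rays, mice on the supplemented diet given 0 Gy, mice on the adequate diet given 8.5 Gy, and mice on the adequate diet given 0 Gy, with 4 libraries each. The design text names 6 days without stating whether the period runs from the start of the diet or from irradiation. The labels name the whole segment as the tissue and give no sorting of cells.

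Intraepithelial lymphocytes are T cells that lie between the absorptive cells of the gut lining. Most of those in the mouse small intestine carry CD8, either as a pair of alpha chains, as in the natural subsets, or as the alpha-beta pair of conventional killer T cells. They are held in place by the integrin CD103, which binds E-cadherin on epithelial cells, and they store granzymes, the proteases that killer cells release into their targets. Cd3e, Cd3g and Cd8a were detected in all 16 libraries, which does not show which cells of the tissue made them. Granzymes, Xcl1, Ccl5 and Cd160 are also made by natural killer cells, and Itgae by some dendritic cells, so the 10 genes do not mark a single cell type.

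Libraries held 2.57 to 15.51 M counts (M, 1000000), with 3 of them under 4 M. Levels are given as CPM, the counts per 1000000 of the scaled library total. Over all genes, the correlation of log2 CPM between libraries of a group was between 0.922 and 0.983.

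The 10 genes did not move together after irradiation. Cd8b1, the beta chain of CD8, and Itgae, the CD103 chain, fell on both diets. Gzma and Gzmb, which encode granzymes A and B, rose on the adequate diet. Cd3e, Cd3g, Cd8a, Cd160, Xcl1 and Ccl5 did not pass the test on either diet. On the supplemented diet, 0 of the 10 rose and 2 fell at an adjusted p under 0.05, where 8.03% of all tested genes rose and 7.21% fell. The counts on the adequate diet were 2 of 10 higher and 2 of 10 lower, where 7.13% of all genes rose and 6.58% fell. The summed CPM of the 10 genes had a median of 75.98 (53.99 to 89.88) in irradiated and 74.02 (63.89 to 91.5) in unirradiated mice on the supplemented diet. On the adequate diet the median sum was 67.87 (54.64 to 75.92) after 8.5 Gy and 64.25 (60.11 to 69.39) after 0 Gy. In such bulk samples, fewer cells of a type and less RNA per cell cannot be told apart.

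**Figure D1:**
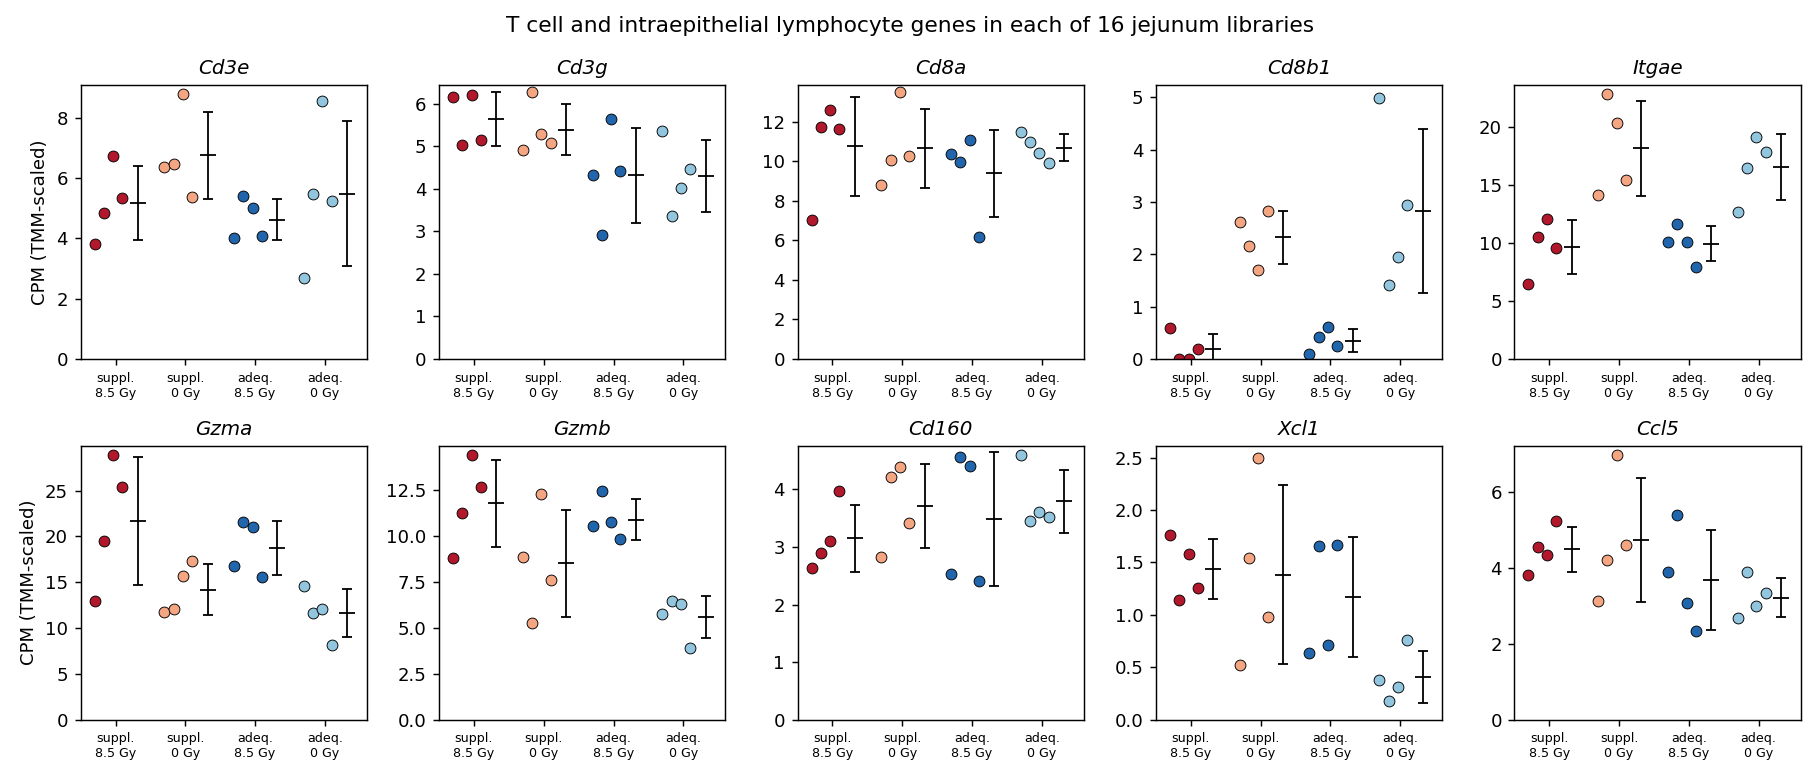
Each panel plots 1 gene, with CPM on the y axis and the 4 groups on the x axis. Each point is a library and the bars give the mean ± SD of 4 libraries, clipped at 0. The Cd8b1 points of irradiated mice lie at or under 0.614 CPM and those of unirradiated mice at or above 1.41 CPM.

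**Figure D2:**
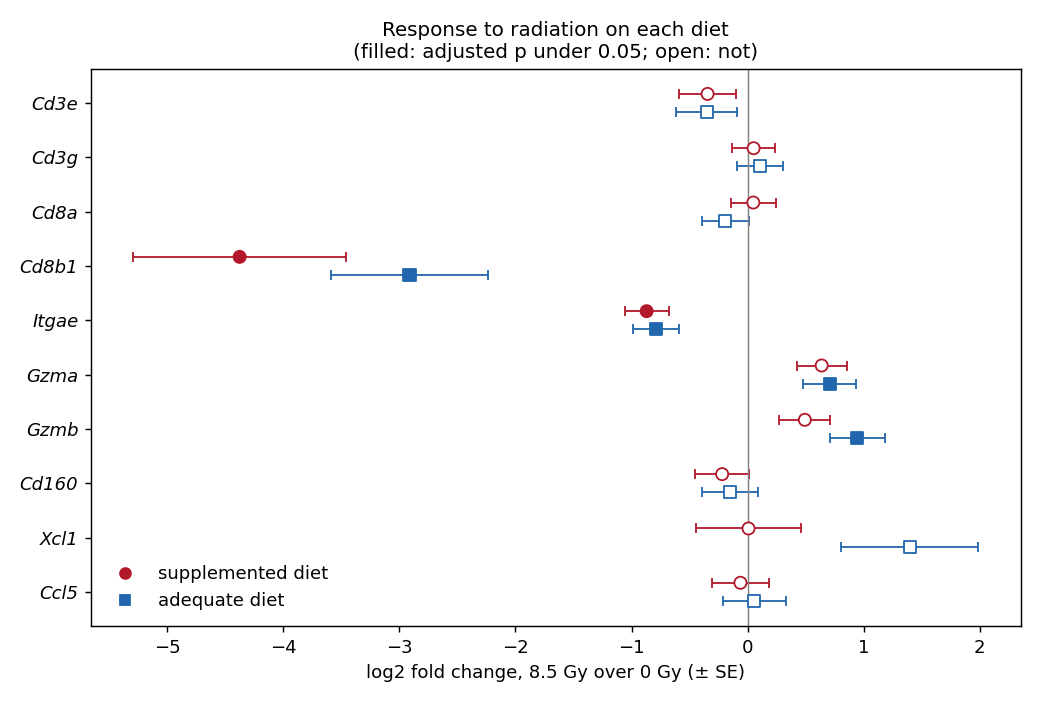
The x axis gives the log2 fold change of 8.5 Gy over 0 Gy with its SE, and each row is a gene. Circles stand for the supplemented and squares for the adequate diet, and filled symbols passed an adjusted p under 0.05. Cd8b1 and Itgae are filled on the left for both diets, Gzma and Gzmb on the right for the adequate diet alone.

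The CD3 chains carry the signal of the T cell receptor into the cell and are shared by all T cells. Cd3e had mean levels of 5.18 ± 1.22 CPM after irradiation and 6.76 ± 1.44 CPM without it on the supplemented diet (SD, n = 4 each). Mice on the adequate diet had 4.63 ± 0.687 CPM after 8.5 Gy and 5.49 ± 2.4 CPM after 0 Gy (SD, n = 4 each). The irradiated and unirradiated libraries overlapped on both diets. Its log2 fold changes were -0.34 ± 0.25 (SE, 95% interval -0.83 to 0.14) on the supplemented and -0.35 ± 0.26 (-0.87 to 0.16) on the adequate diet, and neither passed the test. Cd3g lay closer to no change, at 0.05 ± 0.18 (-0.31 to 0.41) and 0.11 ± 0.20 (-0.28 to 0.49) on the supplemented and the adequate diet. Its libraries held 2.90 to 6.20 CPM after irradiation and 3.36 to 6.27 CPM without it, over both diets. These intervals leave room for a moderate fall or rise of either chain.

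Other genes of the receptor and its signalling were called in neither direction on either diet, with 0 of 14 tested genes each. Over all genes, 8.03% rose and 7.21% fell on the supplemented diet, and 7.13% rose and 6.58% fell on the adequate diet. Of the 14, 2 on each diet had an unadjusted p under 0.05, as did 29.3% of all genes on the supplemented and 29.4% on the adequate diet. The median log2 fold change of the 14 was -0.32 on the supplemented and -0.15 on the adequate diet, where the median of all genes was 0.007 and 0.006. Cd3d, the third CD3 chain, had 0.775 to 1.17 CPM in irradiated and 1.40 to 1.78 CPM in unirradiated libraries of the supplemented diet. In the adequate groups Cd3d had 0 to 1.23 CPM after 8.5 Gy and 1.43 to 1.59 CPM after 0 Gy. Although the Cd3d libraries did not overlap on either diet, the adjusted p was 0.136 and 0.247 on the supplemented and adequate diets. Cd247, which encodes the CD3 zeta chain, had log2 fold changes of -0.33 ± 0.65 and -0.36 ± 0.66 (SE) on the supplemented and the adequate diet.

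CD8 binds class I histocompatibility molecules next to the T cell receptor. Its alpha chain forms a pair with itself or with the beta chain, and the beta chain reaches the cell surface only with an alpha chain. Cd8a did not pass the test on either diet. In irradiated mice on the supplemented diet it averaged 10.8 ± 2.51 CPM, and in unirradiated mice 10.7 ± 2 CPM (SD, n = 4 each). Mice on the adequate diet averaged 9.38 ± 2.19 CPM after 8.5 Gy and 10.7 ± 0.694 CPM after 0 Gy (SD, n = 4 each). The log2 fold change of Cd8a was 0.05 ± 0.19 (SE, 95% interval -0.33 to 0.43) on the supplemented and -0.19 ± 0.20 (-0.59 to 0.20) on the adequate diet.

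Cd8b1 was close to 0 in irradiated jejunum. With the supplemented diet, the 4 irradiated libraries held 2, 0, 0 and 2 counts (0.587, 0, 0 and 0.194 CPM), and the 4 unirradiated ones held 25, 21, 17 and 29 counts (2.61, 2.16, 1.70 and 2.84 CPM). With the adequate diet, the irradiated libraries held 1, 1, 6 and 3 counts (0.106, 0.415, 0.614 and 0.25 CPM), and the unirradiated ones 13, 16, 19 and 31 counts (4.99, 1.41, 1.96 and 2.95 CPM). No irradiated library reached the lowest unirradiated one on either diet. The log2 fold change was -4.38 ± 0.92 (SE, edgeR adjusted p 0.00083) on the supplemented and -2.91 ± 0.67 (adjusted p 0.00619) on the adequate diet. Pooled over the libraries of a group and scaled for depth, the Cd8b1 rate after irradiation was 25.1-fold lower on the supplemented diet (95% interval 9.48 to 94.1) and 7.07-fold lower on the adequate diet (3.75 to 14.7). These intervals cover counting error only. The call was made under all 26 alternative settings tried for each diet. The log2 fold change of Cd8b1 lay between -5.22 and -3.80 over these settings on the supplemented diet and between -3.53 and -2.58 on the adequate diet. It was -5.22 without the libraries under 4 M counts, -5.19 without replicate 1 of the irradiated supplemented mice, and -3.53 on the adequate diet without replicate 3 of the irradiated mice.

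As a share of the Cd8a and Cd8b1 counts of a group, Cd8b1 made up 4 of 506 after irradiation, or 0.791% (exact 95% interval 0.216 to 2.01%), on the supplemented diet. Without irradiation it made up 92 of 514, or 17.9% (14.7 to 21.5%). The share in adequate mice was 11 of 315, or 3.49% (1.76 to 6.16%), after 8.5 Gy and 79 of 438, or 18% (14.5 to 22%), after 0 Gy. In single libraries the share was between 0 and 7.69% after irradiation and between 11.2 and 30.2% without it, so the groups did not overlap in this ratio either. The exact intervals of the pooled shares leave out this spread between libraries. The ratio within a library does not depend on the scaling between libraries, and it was not adjusted for transcript length. The estimated counts of Cd8b1 were not whole numbers in 14 of 16 libraries and those of Cd8a in 15 of 16, which happens where reads also match other genes. How many reads of either gene are shared was not measured, so the absolute levels of both are uncertain.

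Genes of B cells and plasma cells fell beside Cd8b1. Of 6 tested B cell and plasma cell genes, 2 fell on the supplemented diet and all 6 on the adequate diet, among them Jchain, the joining chain of antibodies, with log2 fold changes of -0.90 ± 0.26 and -1.503 ± 0.26 (SE). Over all genes, 7.21% fell on the supplemented and 6.58% on the adequate diet. Summed CPM of the 11 genes of the B cell and plasma cell list lay between 126.9 and 175.5 after irradiation and between 188 and 411 without it on the supplemented diet. Sums for the adequate diet were 74.26 to 126.1 after 8.5 Gy and 236 to 482.6 after 0 Gy. Jchain made up most of these sums, so they mainly follow that gene. It averaged 138.6 CPM after 8.5 Gy and 258.8 CPM after 0 Gy on the supplemented diet, and 100.8 and 287.2 CPM on the adequate diet. The list had no gene at 0 in a whole group. What part these cells had in the Cd8b1 result was not tested.

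Itgae encodes the alpha chain of CD103, which pairs with the integrin beta 7 chain of Itgb7. In supplemented mice, Itgae had 6.46, 10.5, 12.1 and 9.60 CPM in the irradiated libraries and 14.1, 22.8, 20.4 and 15.4 CPM in the unirradiated ones. In adequate mice it had 10.1, 11.6, 10.1 and 7.91 CPM after 8.5 Gy and 12.7, 16.5, 19.2 and 17.9 CPM after 0 Gy. Each irradiated library lay below each unirradiated one of the same diet. Itgae fell by 0.87 ± 0.19 (log2, SE, edgeR adjusted p 0.00602) on the supplemented diet and by 0.79 ± 0.20 (adjusted p 0.0145) on the adequate diet. These are 0.547 and 0.58 times the unirradiated level.

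Itgb7 fell with Itgae. Its levels were 2.81 to 4.13 CPM in irradiated and 5.18 to 6.79 CPM in unirradiated libraries of the supplemented diet, and 2.90 to 4.51 CPM after 8.5 Gy and 5.57 to 11.5 CPM after 0 Gy on the adequate diet. The log2 fold changes were -0.74 ± 0.23 (SE, adjusted p 0.0349) and -1.11 ± 0.23 (adjusted p 0.00522) on the supplemented and the adequate diet. Itgb7 also pairs with the integrin alpha 4 chain on lymphocytes that home to the gut. Cdh1, the E-cadherin that CD103 binds, had log2 fold changes of -0.06 ± 0.14 (SE) on the supplemented and 0.08 ± 0.14 on the adequate diet, and neither passed the test.

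Some dendritic cell genes fell beside Itgae. Of the 11 tested genes for macrophages and dendritic cells, 3 fell and 2 rose on each diet. Over all genes, 7.21% fell and 8.03% rose on the supplemented diet, and 6.58% fell and 7.13% rose on the adequate diet. The listed genes that fell were Clec9a, Flt3 and Cd209a, all of dendritic cells. Other dendritic cell genes of the list, Batf3, Zbtb46 and Itgax, did not pass, nor did Xcr1, which is from the list of partners. They were named after their values were seen. Their log2 fold changes were -0.83, -0.33, 0.37 and -0.78 on the supplemented diet and -0.45, -0.05, 0.28 and -0.44 on the adequate diet. Clec9a, a receptor of the dendritic cells that also carry CD103, had mean levels of 1.65 ± 0.137 CPM after 8.5 Gy and 4.11 ± 1.08 CPM after 0 Gy on the supplemented diet (SD, n = 4 each). Mice on the adequate diet had 1.42 ± 0.273 CPM after 8.5 Gy and 3.85 ± 0.95 CPM after 0 Gy (SD, n = 4 each). Its log2 fold changes were -1.31 ± 0.24 (SE, adjusted p 0.0019) and -1.501 ± 0.26 (adjusted p 0.00136) on the supplemented and the adequate diet. The genes that rose were Lyz2 and Itgam, of macrophages and other myeloid cells, with Lyz2 higher by 1.68 ± 0.26 and 1.16 ± 0.26 (log2, SE). The macrophage genes Csf1r, Adgre1 and Cd68 of the list did not pass, and were also named after their values were seen. Their log2 fold changes were 0.01, 0.16 and 0.16 on the supplemented diet and 0.17, 0.11 and 0.12 on the adequate diet. In the sums that follow, Lyz2 averaged 151.6 CPM after 8.5 Gy and 47.1 CPM after 0 Gy on the supplemented diet. The adequate diet gave 104.4 and 46.8 CPM. The summed CPM of the 11 genes was 289.9 to 403.5 after irradiation and 164.9 to 256.2 without it on the supplemented diet, and 214.1 to 315.9 and 164.3 to 225 on the adequate diet, and none of the 11 was at 0 in a whole group. Their part in the fall of Itgae was not tested.

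Granzymes A and B are serine proteases of killer cell granules. The sequences around the gene starts are shown because both genes rose on the adequate diet. Each window runs from 250 bases before to 50 after the start of the gene in RefSeq on build GRCm38.p6, and lies on the minus strand at chr13:113100932-113101231 for Gzma and chr14:56262285-56262584 for Gzmb. Capitals mark the letters TGTGGT of RUNX factors, read on either strand (ACCACA on the other), and TGANTCA of AP-1.
Gzma promoter: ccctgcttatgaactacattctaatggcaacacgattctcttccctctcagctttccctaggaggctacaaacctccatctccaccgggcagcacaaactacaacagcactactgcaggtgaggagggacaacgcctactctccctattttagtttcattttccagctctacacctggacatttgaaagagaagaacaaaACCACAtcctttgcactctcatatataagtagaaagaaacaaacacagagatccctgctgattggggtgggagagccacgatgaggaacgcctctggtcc
Gzmb promoter: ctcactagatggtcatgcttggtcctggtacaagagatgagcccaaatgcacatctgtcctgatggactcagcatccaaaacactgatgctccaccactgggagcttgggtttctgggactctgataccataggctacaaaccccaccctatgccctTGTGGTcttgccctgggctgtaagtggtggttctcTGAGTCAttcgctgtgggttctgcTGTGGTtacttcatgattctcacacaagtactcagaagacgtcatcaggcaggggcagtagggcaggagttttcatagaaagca
The Gzma window holds the RUNX letters at 50 bases before the start. The Gzmb window holds them at 93 and 34 bases before the start, with AP-1 letters at 58. Of 32851 gene-start windows of this length, 16.8% hold the RUNX letters and 7.8% the AP-1 letters on either strand, and neither motif overlaps the other here. Letters for T-box factors (GGTGTGA, in 4% of windows) and ETS factors (CAGGAAG, in 13.3%) are in neither granzyme window. The RUNX letters are not particular to the granzymes. Windows of Xcl1 and Cd160, which did not pass the test on either diet, hold them too, and those of Cd8a, Cd3e and Cd3g do not. No window was available for Cd8b1, Itgae or Ccl5. The reference is not the CBA/J genome, and a match says nothing on binding.

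Gzma was the member with the highest level per length in all 4 groups. For the supplemented diet its levels were 12.9, 19.5, 28.9 and 25.4 CPM in irradiated and 11.7, 12.0, 15.7 and 17.3 CPM in unirradiated libraries. For the adequate diet they were 16.8, 21.6, 21.0 and 15.6 CPM after 8.5 Gy and 14.6, 11.7, 12.1 and 8.18 CPM after 0 Gy. The groups were apart on the adequate diet and overlapped on the supplemented diet through the shallowest irradiated library of that diet, at 12.9 CPM. Gzma rose by 0.71 ± 0.23 (log2, SE, edgeR adjusted p 0.0484) on the adequate diet. On the supplemented diet the log2 fold change was 0.64 ± 0.22 (adjusted p 0.0542), which missed the threshold. Both values lie close to it, and alternative settings moved either across. Gzma was called in 11 of 26 settings on the adequate diet, with adjusted p from 0.0227 to 0.137, and in 7 of 26 on the supplemented diet.

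Gzmb had 8.80, 11.3, 14.4 and 12.7 CPM in irradiated and 8.89, 5.25, 12.3 and 7.63 CPM in unirradiated libraries of the supplemented diet, and these overlapped. In adequate mice it had 10.6, 12.4, 10.8 and 9.83 CPM after 8.5 Gy and 5.75, 6.45, 6.29 and 3.90 CPM after 0 Gy, with a clear gap between the groups. Gzmb rose on the adequate diet by 0.94 ± 0.24 (log2, SE, edgeR adjusted p 0.0147), a ratio of 1.92. Its log2 fold change on the supplemented diet was 0.49 ± 0.22 (SE, adjusted p 0.144, 95% interval 0.06 to 0.93). Without replicate 3 of the unirradiated supplemented mice it was 0.72 and passed, with an adjusted p of 0.033. The difference between the diets, -0.45 ± 0.32 (log2, SE), did not pass the test of the interaction.

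With both diets averaged, a comparison added after the values were seen, both granzymes rose and Cd8b1 and Itgae fell. The averaged log2 fold changes were 0.67 ± 0.16 (SE, adjusted p 0.00389) for Gzma, 0.72 ± 0.16 (0.00309) for Gzmb, -3.65 ± 0.57 (3.8e-05) for Cd8b1 and -0.83 ± 0.14 (0.000294) for Itgae. These were 2 of 10 genes higher and 2 of 10 lower, where 15.7% of all genes rose and 15.3% fell. The calls for these 4 genes were kept in each of the 25 other settings of this comparison. Xcl1, at 0.70 ± 0.37 (adjusted p 0.154), and Cd3e, at -0.35 ± 0.18 (adjusted p 0.154), did not pass.

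Relative to the CD3 chains of the same library, the granzymes stood higher and Itgae lower after irradiation. Per 100 counts of Cd3e and Cd3g, irradiated mice on the supplemented diet had 198 ± 49.4 counts of Gzma and unirradiated mice 119 ± 31.9 (SD, n = 4 each). Adequate mice had 210 ± 33.9 after 8.5 Gy and 123 ± 43.5 after 0 Gy (SD, n = 4 each). For Gzmb the values were 109 ± 14.3 after 8.5 Gy against 70 ± 20.1 after 0 Gy on the supplemented diet and 123 ± 20.7 against 58.7 ± 16.2 on the adequate diet. Every irradiated library exceeded every unirradiated one of its diet for Gzmb, and for Gzma on the adequate diet. Itgae had 89.1 ± 17.6 after 8.5 Gy and 149 ± 22.3 after 0 Gy on the supplemented diet, and 112 ± 22.5 after 8.5 Gy and 170 ± 18 after 0 Gy on the adequate diet. The groups were apart on both diets. These ratios were formed after the values were seen and are given without a test.

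**Figure D3:**
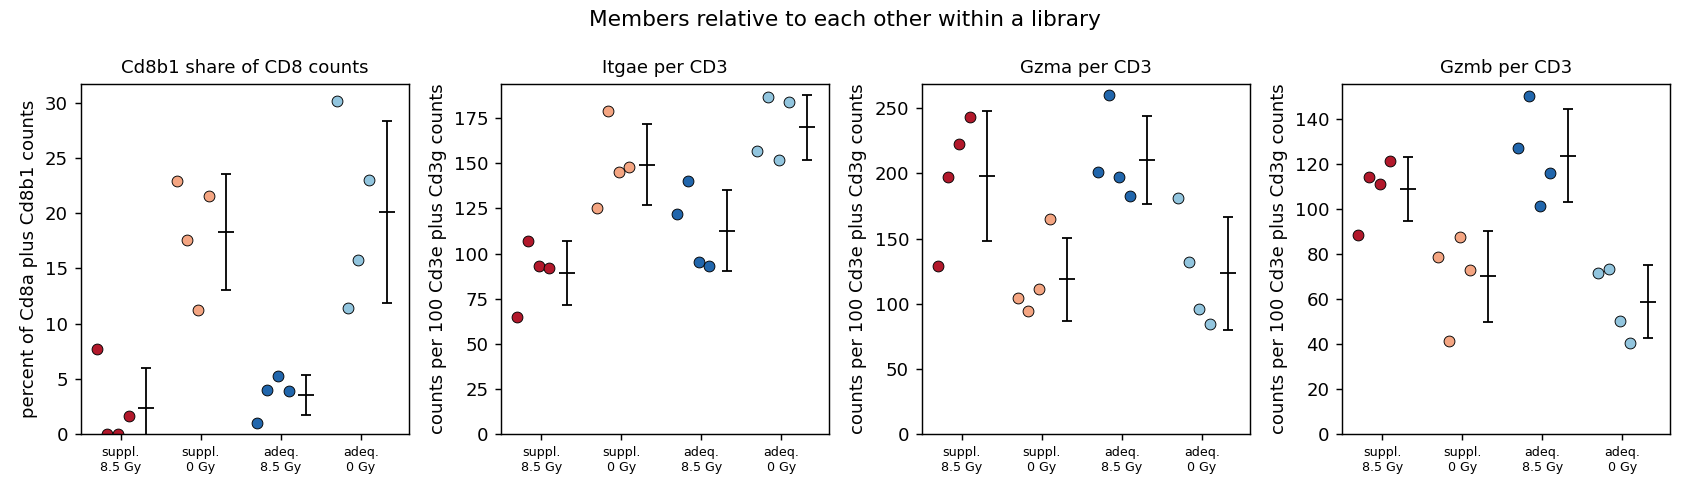
The left panel plots Cd8b1 as a percent of Cd8a plus Cd8b1 counts, and the others plot Itgae, Gzma and Gzmb counts per 100 counts of Cd3e plus Cd3g. Points are libraries, bars the mean ± SD of 4, clipped at 0. Irradiated groups sit lower for the Cd8b1 share, at 7.69% or less, and for Itgae, and higher for Gzmb.

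Of 13 tested genes for cytotoxic and natural killer cells, 0 rose and 1 fell on each diet. Of all genes 8.03% rose and 7.21% fell on the supplemented diet, and 7.13% rose and 6.58% fell on the adequate diet, so that 0 or 1 of 13 is near the share of all genes. The list's median log2 fold change was -0.35 on the supplemented and 0.07 on the adequate diet. The gene that fell was Runx3, a transcription factor that keeps the CD8 program and drives granzyme genes and Itgae. Runx3 had 0.88, 2.55, 2.55 and 2.52 CPM in irradiated and 4.92, 8.54, 5.19 and 5.38 CPM in unirradiated libraries of the supplemented diet. In adequate mice the levels were 2.43, 2.90, 3.99 and 2.58 CPM after 8.5 Gy and 4.60, 4.77, 5.05 and 6.37 CPM after 0 Gy. There was no overlap on either diet, and Runx3 fell by 1.38 ± 0.26 (log2, SE, adjusted p 0.00199) and 0.82 ± 0.27 (adjusted p 0.0492) on the supplemented and the adequate diet. With 1 library left out, the Runx3 call was lost in 12 of 16 fits on the adequate diet and in 0 of 16 on the supplemented diet. Ncr1, a receptor of natural killer cells, averaged 1.85 ± 0.885 and 1.57 ± 0.389 CPM in irradiated and unirradiated mice on the supplemented diet (SD, n = 4 each). It did not pass the test on either diet, with log2 fold changes of 0.14 ± 0.37 and 0.15 ± 0.41 (SE) on the supplemented and the adequate diet. Prf1, the pore former through which granzymes enter a target, was too low to be tested, with pooled counts of 28 after 8.5 Gy and 24 after 0 Gy on the supplemented diet and 13 and 25 on the adequate diet.

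Mast cells store related proteases and can make granzyme B. Mcpt1 and Mcpt2, which encode mast cell proteases, fell on both diets, with log2 fold changes of -3.14 ± 0.42 and -2.22 ± 0.42 (SE) for Mcpt1 on the supplemented and the adequate diet. Of 4 tested mast cell genes, 3 fell on the supplemented diet, Cpa3 being the third, and 2 on the adequate diet, where 7.21 and 6.58% of all genes fell. Kit, also a gene of other cell types, rose on the supplemented diet by 0.78 ± 0.18 (log2, SE, adjusted p 0.00827). The summed CPM of the 7 listed genes was 23.46 to 40.49 after irradiation and 19.87 to 33.16 without it on the supplemented diet, and 23.02 to 29.74 and 21.47 to 25.61 on the adequate diet. Kit made up most of these sums, so they do not follow the mast cell proteases. It averaged 27.71 CPM after 8.5 Gy and 15.97 CPM after 0 Gy on the supplemented diet, and 22.75 and 16.37 CPM on the adequate diet. Mcpt1 averaged 0.749 and 5.91 CPM on the supplemented diet, and 1.09 and 4.05 CPM on the adequate diet. None of the 7 was at 0 in a whole group, and their part in the Gzmb result was not tested.

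Cd160 is a receptor of natural killer cells and intraepithelial lymphocytes that binds Tnfrsf14, a receptor on neighbouring cells also known as HVEM. Its mean level was 3.15 ± 0.581 CPM after 8.5 Gy and 3.715 ± 0.729 CPM after 0 Gy on the supplemented diet (SD, n = 4 each). Mice on the adequate diet had 3.48 ± 1.16 CPM after 8.5 Gy and 3.79 ± 0.543 CPM after 0 Gy (SD, n = 4 each), and the groups overlapped on both diets. The log2 fold change after irradiation was -0.22 ± 0.23 (SE, 95% interval -0.68 to 0.24) on the supplemented and -0.15 ± 0.24 (-0.63 to 0.33) on the adequate diet. Neither passed the test, nor did Tnfrsf14 at -0.09 ± 0.17 and 0.09 ± 0.18 (log2, SE), a gene named as the known partner.

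Xcl1 is a chemokine of activated T and natural killer cells that draws dendritic cells with the receptor Xcr1. It was the lowest member of the unirradiated adequate diet, and it was counted only 1, 2, 3 and 8 times in those libraries (0.383, 0.177, 0.309 and 0.761 CPM). The irradiated libraries of that diet held 6, 4, 7 and 20 counts (0.633, 1.66, 0.717 and 1.67 CPM), which overlapped narrowly. The log2 fold change of Xcl1 was 1.40 ± 0.59 (SE, 95% interval 0.24 to 2.55, adjusted p 0.11), past an unadjusted threshold of 0.05 but not past the adjusted one. In supplemented mice the levels were 1.76, 1.14, 1.58 and 1.26 CPM after 8.5 Gy and 0.523, 1.54, 2.50 and 0.978 CPM after 0 Gy. The irradiated values lay within the spread of the unirradiated ones, and the log2 fold change was 0.01 ± 0.45 (SE).

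Ccl5 is a chemokine of activated T and natural killer cells whose receptors include Ccr1 and Ccr3. It averaged 4.49 ± 0.589 CPM in irradiated and 4.74 ± 1.63 CPM in unirradiated mice on the supplemented diet (SD, n = 4 each). On the adequate diet the means were 3.68 ± 1.31 CPM after 8.5 Gy and 3.22 ± 0.515 CPM after 0 Gy (SD, n = 4 each). Groups overlapped on both diets, with log2 fold changes of -0.06 ± 0.25 (SE, 95% interval -0.55 to 0.43) and 0.06 ± 0.27 (-0.48 to 0.59) on the supplemented and the adequate diet. Among the receptors, Ccr3, best known from eosinophils, fell on both diets, by 1.49 ± 0.46 (log2, SE, adjusted p 0.0383) on the supplemented and by 3.34 ± 0.69 (adjusted p 0.00194) on the adequate diet.

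Of the 16 listed partners of the 10 genes, which include chemokine receptors, class I molecules, integrin partners and granzyme targets, 6 fell on the supplemented and 2 on the adequate diet, and 0 rose. Over all genes, 7.21% fell and 8.03% rose on the supplemented diet, and 6.58% fell and 7.13% rose on the adequate diet. The median log2 fold change of the 16 partners was -0.55 and -0.20 on the supplemented and the adequate diet. Itgb7 and Ccr3 fell on both diets. On the supplemented diet the class I genes H2-T22 and H2-D1 also fell, by 0.79 ± 0.15 (log2, SE, adjusted p 0.00221) and 0.70 ± 0.19 (adjusted p 0.0208). Class I genes are related in sequence and their reads may be shared, which was not measured, so these values are uncertain.

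Among 20 genes of the epithelial niche and of homing to it, 2 fell on the supplemented diet and 1 rose on the adequate diet, near the shares of all genes, 7.21% and 7.13%. The genes that fell were Ccl25, the chemokine with which the small intestine draws lymphocytes, and its receptor Ccr9, by 0.77 ± 0.18 (log2, SE, adjusted p 0.00817) and 0.86 ± 0.28 (adjusted p 0.0442). On the adequate diet Ccl25 had a log2 fold change of -0.43 ± 0.18 (SE, adjusted p 0.119) and Ccr9 of -0.89 ± 0.29 (adjusted p 0.0517). The gene that rose was Cxcl9, an interferon-induced chemokine for activated T cells, by 1.36 ± 0.38 (log2, SE, adjusted p 0.0271), although the groups overlapped. Il15, a cytokine that sustains intraepithelial lymphocytes, had log2 fold changes of -0.31 ± 0.26 and -0.33 ± 0.27 (SE) on the supplemented and the adequate diet, neither past the test.

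Of 9 tested genes for helper, regulatory and naive T cells, 2 fell on the supplemented and 1 on the adequate diet, where 7.21 and 6.58% of all genes fell. Among them was Lef1, a transcription factor of naive T cells that epithelial stem cells also use, which fell on the supplemented diet by 0.77 ± 0.23 (log2, SE, adjusted p 0.0314). Cd4, the coreceptor of helper T cells, averaged 7.13 ± 1.82 CPM after 8.5 Gy and 9.11 ± 2.88 CPM after 0 Gy on the supplemented diet, and 7.76 ± 2.31 CPM after 8.5 Gy and 7.09 ± 0.666 CPM after 0 Gy on the adequate diet (SD, n = 4 each). Cd4 did not pass the test on either diet.

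Of the 12 genes that leukocytes of all kinds share, 3 fell on the supplemented and 1 on the adequate diet, where 7.21 and 6.58% of all genes fell. Cytip, which regulates adhesion of activated lymphocytes, fell on both, by 1.12 ± 0.30 (log2, SE, adjusted p 0.0191) and 1.10 ± 0.30 (adjusted p 0.0236). Rac2 and Coro1a, regulators of the leukocyte cytoskeleton, fell on the supplemented diet by 0.62 ± 0.18 and 0.61 ± 0.19 (log2, SE). Ptprc, the surface protein CD45, had log2 fold changes of -0.33 ± 0.21 and -0.35 ± 0.21 (SE), and Ptprcap, which binds it, of -0.88 ± 0.33 and -0.78 ± 0.34, on the supplemented and the adequate diet, with none past the test. Of 10 epithelial genes, Krt18 rose on both diets, and on the adequate diet Lgals4 rose and Cdx2 fell. Over all genes, 8.03% rose on the supplemented and 7.13% on the adequate diet. The summed CPM of the epithelial genes was 6132 to 10049 after irradiation and 7295 to 8687 without it on the supplemented diet, and 5662 to 8971 and 6872 to 7887 on the adequate diet.

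**Figure D4:**
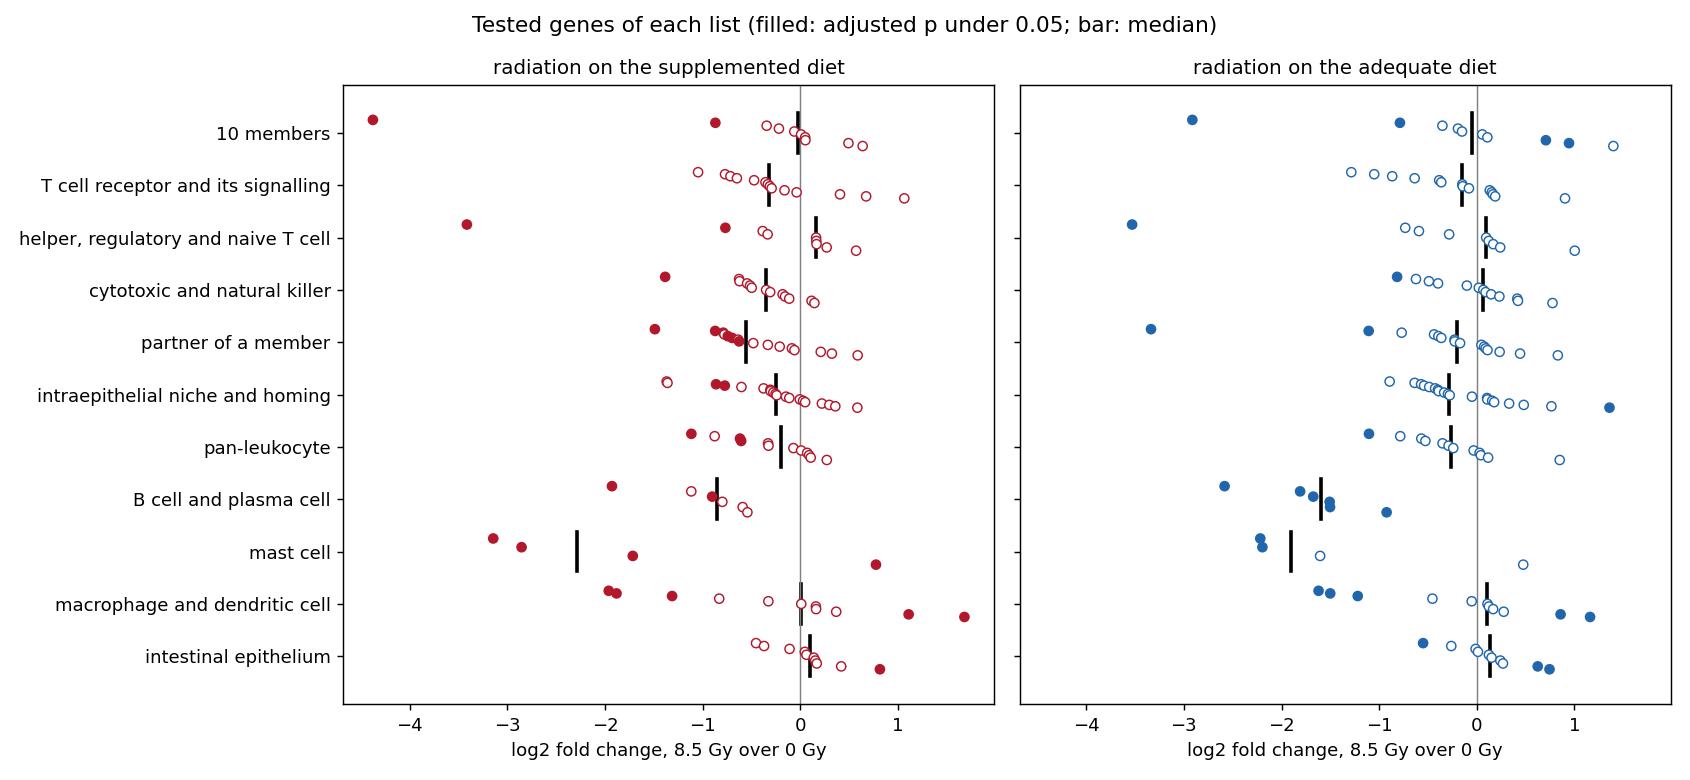
Each point is a tested gene, with its log2 fold change of 8.5 Gy over 0 Gy on the x axis and its list on the y axis, on the supplemented diet (left) and the adequate diet (right). Filled points passed an adjusted p under 0.05 and black bars are medians. The 10 genes in the top row have medians of -0.03 and -0.05, with Cd8b1 far to the left.

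Diet gave no call among the 10 genes. Between supplemented and adequate mice without irradiation, 0 of 10 were called by edgeR, DESeq2 or limma, where 0.169% of all genes were higher and 0.0302% lower on the supplemented diet. Unadjusted p values under 0.05 were found for 2 of the 10, Xcl1 and Gzmb, and for 11.9% of all genes. Xcl1 averaged 1.39 ± 0.851 CPM on the supplemented and 0.408 ± 0.251 CPM on the adequate diet (SD, n = 4 each), a log2 fold change of 1.72 ± 0.57 (SE, edgeR adjusted p 0.213). Gzmb averaged 8.51 ± 2.94 CPM and 5.60 ± 1.17 CPM on the supplemented and the adequate diet (SD, n = 4 each), at 0.61 ± 0.23 (log2, SE, adjusted p 0.309). In 9 of 10 genes the fold change was positive, with a median of 0.28 where all genes had -0.009. Other lists varied. Positive were 11 of 11 macrophage and dendritic cell genes (median 0.26) and 11 of 13 cytotoxic and natural killer cell genes (0.30). So were 9 of 12 genes shared by leukocytes (0.17), 6 of 9 helper, regulatory and naive T cell genes (0.135) and 3 of 4 mast cell genes (0.28). The T cell receptor and signalling genes had 8 of 14 positive (0.046), and the B cell and plasma cell genes 0 of 6 (-0.625). Outside leukocytes, 8 of 10 epithelial genes were positive (0.116). The unirradiated adequate mice enter both this comparison and that of radiation on the adequate diet, in which Gzmb rose.

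After irradiation, 0 of the 10 genes differed between the supplemented and the adequate diet and none had an unadjusted p under 0.05, where 0% of all genes were called higher and 0% lower and 871 had an unadjusted p under 0.05. Cd8b1 lay at -1.61 ± 1.03 (log2, SE, 95% interval -3.63 to 0.42) and Ccl5 at 0.40 ± 0.26 (-0.11 to 0.92), the lowest and the highest of the 10. The interaction (the radiation response of supplemented mice less that of adequate mice) also gave 0 calls in the 10 genes and in 0% of all genes in either direction. No member had an unadjusted p under 0.05 there, against 738 of all genes. Its widest values were Cd8b1, at -1.46 ± 1.14 (log2, SE, 95% interval -3.69 to 0.77), and Xcl1, at -1.39 ± 0.74 (-2.85 to 0.07). The intervals of these low genes span large differences in either response, so the larger fall of Cd8b1 on the supplemented diet is not shown to differ from that on the adequate diet.

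Levels of different genes can be compared per kilobase of effective transcript length. Gzma stood first, with mean levels of 26.09 CPM per kilobase after irradiation and 17.07 without it on the supplemented diet, and 22.52 after 8.5 Gy and 13.95 after 0 Gy on the adequate diet. Cd3g, Ccl5 and Gzmb followed in most groups, between 4.08 and 9.68 CPM per kilobase. Itgae had mean levels of 2.54 and 4.79 CPM per kilobase after and without irradiation on the supplemented diet, and 2.62 and 4.36 on the adequate diet. Cd8b1 stood last in both irradiated groups, at 0.14 and 0.25 CPM per kilobase on the supplemented and the adequate diet. Of the 9 neighbouring pairs in each order, the ranges of libraries were apart in 3 for irradiated and 0 for unirradiated mice on the supplemented diet, and in 2 and 1 on the adequate diet, so most neighbours did not differ beyond their spread.

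Within groups, the 10 genes followed each other weakly. Over their 45 pairs, the Pearson r of log2 CPM after removal of the group means had a median of 0.21 over 16 libraries, from -0.61 to 0.73, and 30 pairs were above 0. The most similar protein-coding genes, of 12323 compared in the same way, were Shld1 and Slc8a3 for Gzma (r 0.90 and 0.88) and Aaed1 and Klhl9 for Gzmb (0.76 and 0.75). For Itgae they were Scarb1 and Ndrg2 (0.88 and 0.86), and for Cd8b1 Gmpr2 and Dpm1 (0.89 and 0.86). The CD3 chains had Foxq1 and Ap5m1 (0.90 and 0.88) for Cd3e, and Fhit and the leukocyte receptor Slamf7 (0.92 and 0.83) for Cd3g. Those of Xcl1 were 2 leukocyte surface genes, Itgax and Lair1 (both 0.88). For Cd8a they were Sult1d1 and Foxo3 (0.94 and 0.92), for Cd160 Mat2b and Echs1 (0.90 and 0.87), and for Ccl5 Otc and Avl9 (0.89 and 0.86). All libraries contribute depth and composition to each pair, and the highest of so many values are a description only.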

How the data were processed

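RNA was sequenced in 16 libraries of proximal jejunum. Libraries were made with a kit for small RNA from fragmented RNA without ribosomal RNA, per the labels' protocols. Per the submitters' processing notes, Bowtie2 2.2.9, RSEM 1.3.0, edgeR 3.2.4 and build NCBIM37 were used. The deposited values, per the file headers, are estimated counts of each gene from RSEM, with its effective length. RSEM divides reads that match several genes among them. Counts were rounded. Symbols came from GENCODE M21, of a later build, and gave 32897 of 37620 IDs a name.

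Genes were filtered with filterByExpr of edgeR 4.0.16, scaled by TMM factors and fitted with 4 group means (R 4.3.3). Comparisons used the two-sided quasi-likelihood F test, with Benjamini-Hochberg adjustment over 16558 genes and a threshold of 0.05. The common biological coefficient of variation was 0.219. Intervals of 95% on log2 fold changes come from the SE, and those of shares are exact binomial ones. The fit was first checked on simulated counts.

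The labels name no batch and no animal, and replicate numbers pair nothing, so p-values measure the spread between libraries, which may be technical. No library was a copy of another of its group (chi-square per degree of freedom at least 9.26). The members and lists were chosen with earlier results of these data known. All 10 members are named. Of each other list, at most the 3 called genes with the smallest p in each radiation comparison are named, and Cd3d, Cd247, Ptprc, Ptprcap, Prf1, Il15, Cdh1, Cd4 and Ncr1 whatever their result. Others are named as stated, and some genes that the rule names are not reported here. Similar genes are the 2 with the highest r per member. Alternatives were other scalings, no filter, a stricter threshold, DESeq2 1.42.0, limma 3.58.1, only the groups compared, and libraries left out.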

Additional observations from a re-analysis of the deposited data

Results flagged for a closer look

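Cd160 in replicate 1 of the unirradiated adequate mice, one of the 3 shallow libraries, had 4.60 CPM, while the other libraries of that group had 3.44 to 3.61 CPM. This was the only value far from its group among 40 groups of 4 libraries, where chance gives about 1 in 20.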

How the results depend on the processing

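Cd8b1 and Itgae kept their fall, and Gzmb its rise on the adequate diet, under every setting tried, with the exception that Itgae and Gzmb on the adequate diet missed an adjusted p under 0.01. On that diet the count of the 10 genes called higher was 1 with RLE size factors, with library totals alone and without the filter on low counts, 0 at an adjusted p under 0.01, and 1 to 2 with 1 library left out. The count called lower was 1 at an adjusted p under 0.01. For the supplemented diet, 1 gene was called higher with upper-quartile factors, in DESeq2, in limma and without the libraries under 4 M counts, and 0 to 1 with 1 library left out. Gzma made all of these differences in genes called higher except that Gzmb was the gene called without replicate 3 of the unirradiated supplemented mice, and that both granzymes missed 0.01. Gzma on the adequate diet lost its call without any 1 of 11 libraries, among them all 4 unirradiated ones of the supplemented diet. Among named genes of the other lists, 10 of 22 calls on the supplemented diet (Itgb7, Cd79a, Cytip, Lef1, Ccr9, Coro1a, Rac2, Ccr3, Jchain and H2-D1) and 5 of 18 on the adequate diet (Cytip, Cxcl9, Cdx2, Lgals4 and Runx3) were lost without at least 1 single library. Runx3 on the adequate diet lost its call in 12 of 16 such fits. On the supplemented diet, Ccr9 lost it in 11 and Coro1a in 10. For both irradiated diets, library totals alone moved the median of all genes by -0.20 (supplemented) and -0.16 (adequate).

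Genes that never passed turned sign near 0; their log2 fold changes follow, with the range over libraries left out singly given last. After irradiation on the supplemented diet, Cd8a had -0.157 with library totals alone, -0.072 averaged over both diets, and -0.034 to 0.183. Cd3g had -0.150 with library totals, and -0.010 to 0.131. Xcl1 had -0.184 with library totals, -0.057 without the shallow libraries, -0.005 without the filter, -0.008 in the pair of groups alone, 0.000 with factors from protein-coding genes, and -0.258 to 0.455. Ccl5 had 0.002 in limma, and -0.215 to 0.186. Cdh1 had 0.001 without the shallow libraries and 0.008 averaged. Ncr1 had -0.043 with library totals, -0.048 without the shallow libraries, and -0.051 to 0.386. After irradiation on the adequate diet, Cd3g had -0.061 with library totals, and -0.036 to 0.200. Cd160 had -0.351 to 0.007. Ccl5 had -0.118 with library totals, -0.136 without the shallow libraries, -0.081 in limma, -0.003 averaged, and -0.095 to 0.238. Cdh1 had -0.099 and Cd4 -0.026 with library totals. Cd4 had -0.106 averaged, and -0.120 to 0.288. Ncr1 had -0.202 to 0.366. For diet without irradiation, Cd8b1 had 0.150 without the shallow libraries, 0.065 in limma, and -0.394 to 0.149. The cause was not tested. No paired analysis was possible because the labels carry no replicate numbers and those used here follow the order of the samples. Xcl1 on the adequate diet and between unirradiated groups, and Cd8b1 between irradiated groups, gave no value in the pair of groups alone, since the filter removed them there.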
